A study of Mus musculus with 22 samples.

Results

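The 10 genes described here encode heat shock proteins of the cytosol and the mitochondrial matrix, with a pair of their co-factors: Hspa1a, Hspa1b, Hspa8, Hsph1, Hsp90aa1, Dnajb1, Bag3, Hspb1, Hspd1 and Hspe1. They were taken by gene symbol from a table of 55414 genes, and all 10 were among the 17554 genes with enough counts to be tested. RNA came from fibroblasts sorted from mouse skin 1, 2 or 4 days after an operation. EXP mice carried a hydrogel expander under the skin near the neck, and CTRL mice had the same operation without an expander, so both arms had been through surgery. CTRL was sequenced in 4, 3 and 4 libraries on days 1, 2 and 4, and EXP in 5, 3 and 3. The skin was dissociated to single cells, cells positive for CD31, CD45, CD117 or EpCAM were excluded, and live CD34+ PDGFRα+ cells were kept. The labels used here give no strain, sex or age, and do not say whether a library came from 1 mouse, so the p-values measure the spread between these libraries.

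Heat shock proteins are chaperones, which hold unfolded proteins and help them to fold or to be degraded. The HSP70 proteins work in cycles driven by ATP. J-domain proteins such as Dnajb1 bring clients and start ATP hydrolysis, nucleotide exchange factors such as Hsph1 and Bag3 release the client, and HSP90 takes over many signalling proteins. Hspd1 (HSP60) and its lid Hspe1 (HSP10) form the folding chamber of the mitochondrial matrix, and the chaperonin TRiC/CCT is the corresponding chamber of the cytosol. Many of these genes are induced by heat shock factor 1 (Hsf1), which binds heat shock elements in promoters. Their transcripts are also known to increase when tissue is dissociated to single cells.

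Total counts ran from 21461294 to 30210204 per library. Levels are given as CPM, read counts scaled to the library total after TMM adjustment. A log2 difference is the log2 fold change of EXP over CTRL. A gene was called at an edgeR quasi-likelihood p-value under 0.05 after Benjamini-Hochberg adjustment over all tested genes. The 8 fibroblast markers summed to between 41180 and 289120 CPM, while those of keratinocytes reached at most 50.01 CPM. The fibroblast sums were 138300 to 191760 CPM in CTRL and 74411 to 117290 CPM in EXP on day 1, 236620 to 289120 and 49200 to 120630 CPM on day 2, and 188570 to 249080 and 41180 to 185430 CPM on day 4. A single marker reached 89546 CPM in a CTRL library of day 1 and 134920 CPM in one of day 2. Of the 8 markers, 1, 1 and 1 were called higher in EXP on days 1, 2 and 4, and 3, 4 and 3 lower. Of all tested genes, 13.9%, 7.72% and 12.8% were called higher and 14.7%, 5.71% and 9.66% lower. The part of these markers in the differences below was not tested. Apart from the groups, 192 genes that moved with Rnf10 set 7 libraries apart from the rest. Of this high side, 5 libraries were from day 1 (CTRL replicates 1 to 3, EXP replicates 1 and 2) and 2 from day 4 (CTRL replicates 3 and 4). Scaling on library totals alone moved the median log2 fold change of all tested genes from 0.0168 to 0.207 on day 1, from 0.021 to 0.489 on day 2 and from 0.0315 to 0.363 on day 4, so every fold change below is relative to the bulk of genes.

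In expanded skin the mitochondrial chaperonin genes were higher and the HSP70 co-factors Dnajb1 and Bag3 lower. Hspd1, Dnajb1 and Bag3 were called on all 3 days and Hspe1 on days 2 and 4. In bulk RNA, fewer cells that express a gene and less RNA per cell cannot be told apart. On day 1, 2 of the 10 genes were called higher in EXP (Hspd1 and Hsp90aa1) and 2 lower (Dnajb1 and Bag3), against 13.9% and 14.7% of all tested genes. On day 2, Hspd1 and Hspe1 were called higher and Dnajb1 and Bag3 lower, against 7.72% and 5.71% of all genes. On day 4 Hspd1 and Hspe1 were again called higher, and Hspa1a, Hspa1b, Dnajb1 and Bag3 lower, against 12.8% and 9.66%. EXP and CTRL libraries did not overlap for 4 of the 10 genes on day 1, 8 on day 2 and 3 on day 4, where 23.9%, 39.3% and 25.5% of all tested genes did not overlap. The median log2 fold change of the 10 genes was -0.24, -0.18 and -0.30 on the 3 days, with genes on both sides of 0.

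**Figure D1:**
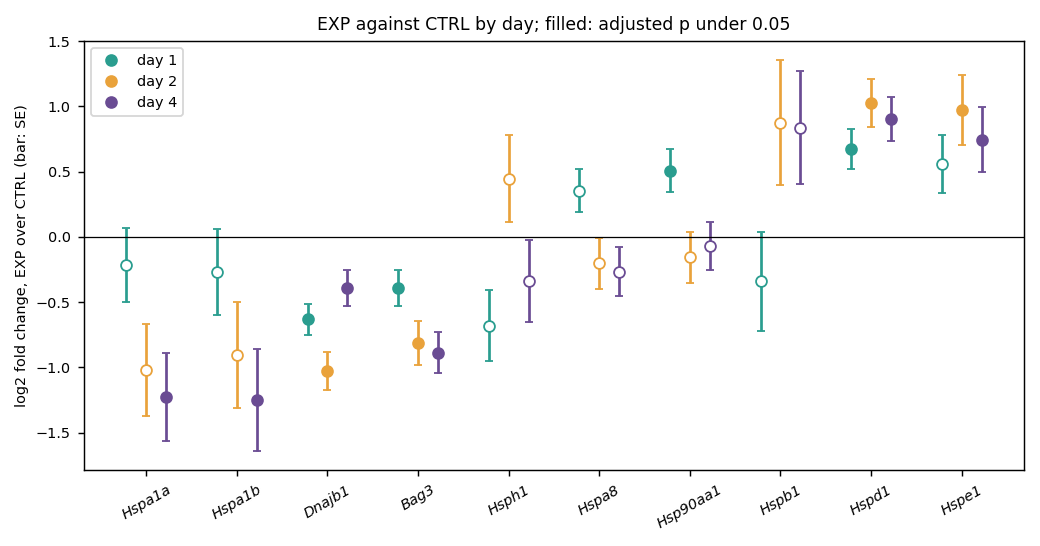
Log2 fold change of EXP over CTRL (vertical axis, bars are SE) for each heat shock protein gene (horizontal axis) on day 1, 2 and 4 (colours), with filled points for an adjusted p under 0.05. Hspd1 lies between 0.67 and 1.03 on the 3 days and is filled on each, while Dnajb1 and Bag3 lie between -0.39 and -1.03 and are filled on each.

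Hspd1 and Hspe1 stand head to head on chromosome 1. In the RefSeq promoter table (build GRCm38.p6), which covers 250 bases before to 50 after each start, the window of the Hspe1 start and that of 1 of the 2 Hspd1 starts lie on opposite strands and share 285 bases, with 215 bases between these starts. The shared stretch holds the heat shock element of 3 units (GAANNTTCNNGAA or TTCNNGAANNTTC, searched on both strands), beginning 89 bases before the Hspe1 start. The 30 bases around it, chr1:55088053-55088082 on the Hspe1 strand, are shown because a single element faces both genes. Capitals mark the 18 bases covered by overlapping matches of the 3-unit element.
Hspe1: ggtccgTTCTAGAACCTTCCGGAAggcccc

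These bases lie within an exon of 1 annotated Hspd1 transcript and no other (GENCODE M21). The 3-unit element was found in 0.603% of all 32851 promoter windows of the table, and in 3 of the 8 heat shock genes that the table holds: Hspd1, Hspe1 and Hsph1, where it lay after the start. The matches of Hspd1 and Hspe1 are the same bases. The 8 genes have 11 windows, so counts of genes are not the same measure as shares of windows. The 2-unit form (GAANNTTC, contained in every 3-unit match) was found in 7.86% of all windows and in 7 of the 8 genes, Dnajb1 being the exception. It lay before the start in 5 of them, for Hspd1 at 1 of its 2 starts only, against 6.69% of all windows. These 5 include Hspd1 and Hspe1, which share the element, and Hspa1a and Hspa1b, whose upstream bases are nearly identical (below). Hspa8 and Hsp90aa1 were not matched to the table.

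**Figure D2:**
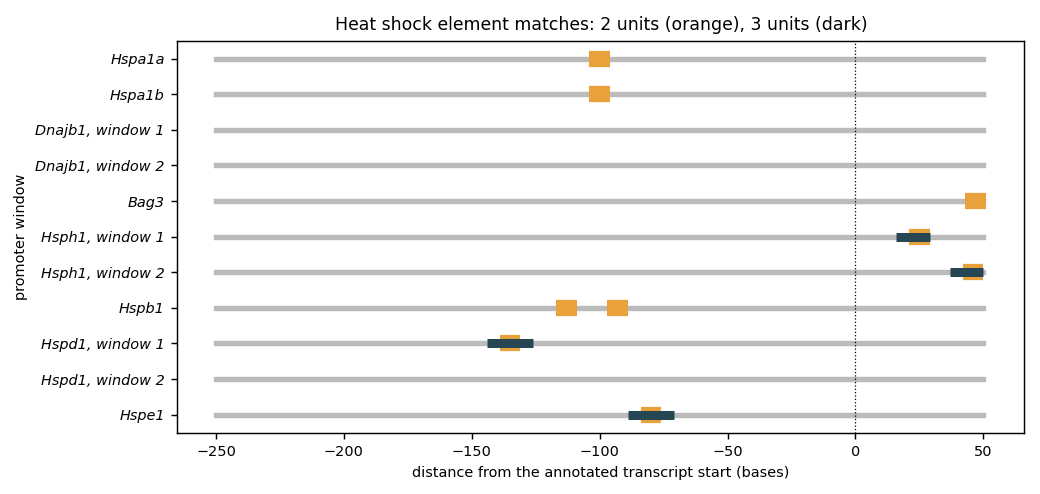
Positions of heat shock element matches in the promoter windows (grey bars, 1 row per annotated start) of 8 heat shock genes, as distance in bases from the annotated transcript start (dotted line). Matches of the 2-unit form are orange and of the 3-unit form dark. Matches in Hspa1a, Hspa1b, Hspb1, Hspd1 and Hspe1 lie before the start, and those in Bag3 and Hsph1 after it. For Hspd1 this holds for 1 of its 2 annotated starts, and the window of the other holds no match.

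Hspd1 (ENSMUSG00000025980) was higher in every EXP library than in every CTRL library of the same day. On day 1 the 4 CTRL libraries were at 78.8, 84.3, 62.3 and 70.0 CPM, and the 5 EXP libraries at 115, 128, 99.9, 122 and 123.9 CPM. The fold was 1.59, a log2 difference of 0.67 (SE 0.15, adjusted p = 0.00230). On day 2 CTRL libraries were at 52.1, 48.0 and 49.5 CPM and EXP libraries at 118, 94.3 and 93.3 CPM. This was a log2 difference of 1.03 (SE 0.18, adjusted p = 0.00119), or 2.04-fold. On day 4 CTRL libraries were at 63.3, 62.9, 47.2 and 50.4 CPM and EXP libraries at 138, 91.5 and 85.2 CPM, a log2 difference of 0.90 (SE 0.17, adjusted p = 0.00148). The call was kept in each fit that left out 1 library. It was lost within 1 side of the library split, at 0.66 among the 5 high-side libraries of day 1 (adjusted p = 0.0711) and 0.73 among the 5 low-side libraries of day 4 (adjusted p = 0.253), where only 1 gene of all was called.

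Hspe1 (ENSMUSG00000073676) was measured at a lower level and with more spread. On day 1 CTRL libraries were at 16.0, 18.0, 15.1 and 17.1 CPM, and EXP libraries at 14.7, 27.9, 31.2, 29.3 and 18.9 CPM. EXP replicate 1 lay below all CTRL libraries while the other 4 lay above them, and the log2 fold change of 0.56 (SE 0.22, adjusted p = 0.0627) did not pass. On library totals (adjusted p = 0.0314) and with limma voom (adjusted p = 0.0426) it passed, but not in 10 of 12 alternatives. It also passed without EXP replicate 1 (adjusted p = 0.0130) or EXP replicate 5 (adjusted p = 0.0458). On day 2 CTRL libraries were at 10.3, 10.97 and 8.31 CPM and EXP libraries at 19.0, 18.8 and 20.1 CPM, with no overlap and a log2 difference of 0.97 (SE 0.27, adjusted p = 0.0213). On day 4 CTRL libraries were at 15.3, 20.3, 9.26 and 12.6 CPM and EXP libraries at 29.3, 24.0 and 18.9 CPM. CTRL replicate 2 reached above the lowest EXP library, and the log2 fold change was 0.75 (SE 0.25, adjusted p = 0.0359). The Hspe1 call did not survive leaving out any library of day 2 but EXP replicate 2, nor leaving out CTRL replicate 3 or 4 or EXP replicate 1 or 2 of day 4 (adjusted p up to 0.102 and 0.182), nor the library split as a covariate on day 4 (0.59, adjusted p = 0.0997).

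The Hspd1 to Hspe1 ratio of CPM ran from 3.11 to 7.81 over the 22 libraries, with a median of 4.61. Exons of both genes overlap on opposite strands in GENCODE M21. Whether the counting used strand is not given in the sources used here, so reads from the overlap cannot be assigned to 1 of them. Of all 150-base stretches of the longest Hspd1 transcript, 18.6% also occur in the pseudogene Hspd1-ps3, and no stretch of Hspe1 occurs in another gene.

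Among 9813 genes outside this set with a mean of at least 5 CPM, those whose log2 CPM followed the mean of Hspd1 and Hspe1 most closely over the 22 libraries were Cct7 (Pearson r = 0.95), Tcp1 (r = 0.934), Nap1l1 (r = 0.925), Cct5 (r = 0.922) and Cct8 (r = 0.919). Of these, 4 encode subunits of the cytosolic chaperonin TRiC/CCT, and Nap1l1 encodes a histone chaperone. The libraries share their groups, so with group means removed r was 0.723 for Cct7, 0.634 for Tcp1, 0.794 for Nap1l1, 0.724 for Cct5 and 0.484 for Cct8. These values describe the libraries and carry no test.

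The chaperonin genes were therefore read from the list of TRiC/CCT and prefoldin genes, which was divided into its complexes after the values were seen. All 8 chaperonin subunits were called higher in EXP on each day, with log2 fold changes of 0.58 to 0.86 on day 1, 0.61 to 0.96 on day 2 and 0.44 to 0.86 on day 4. Of all tested genes, 13.9%, 7.72% and 12.8% were called higher on these days. Their summed level on day 1 was 911 ± 72.7 CPM in the 4 CTRL libraries and 1475 ± 125 CPM in the 5 EXP libraries (mean ± SD). The sums were 721 ± 66.8 and 1214 ± 87.7 CPM (SD, n = 3 each) on day 2, and 828 ± 115 (SD, n = 4) and 1293 ± 180.5 CPM (SD, n = 3) on day 4. The lowest EXP sum of each day exceeded the highest CTRL sum. Of the 6 prefoldin genes, which hand unfolded actin and tubulin to TRiC, 1, 0 and 2 were called higher on the 3 days and none lower. The count of chaperonin subunits called was 8 in every leave-one-out fit of day 1. It was 5 without CTRL replicate 2 or EXP replicate 1 of day 2, 5 without CTRL replicate 3 or 4 or EXP replicate 1 or 2 of day 4, and 1 in a fit of the day 4 libraries alone.

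**Figure D3:**
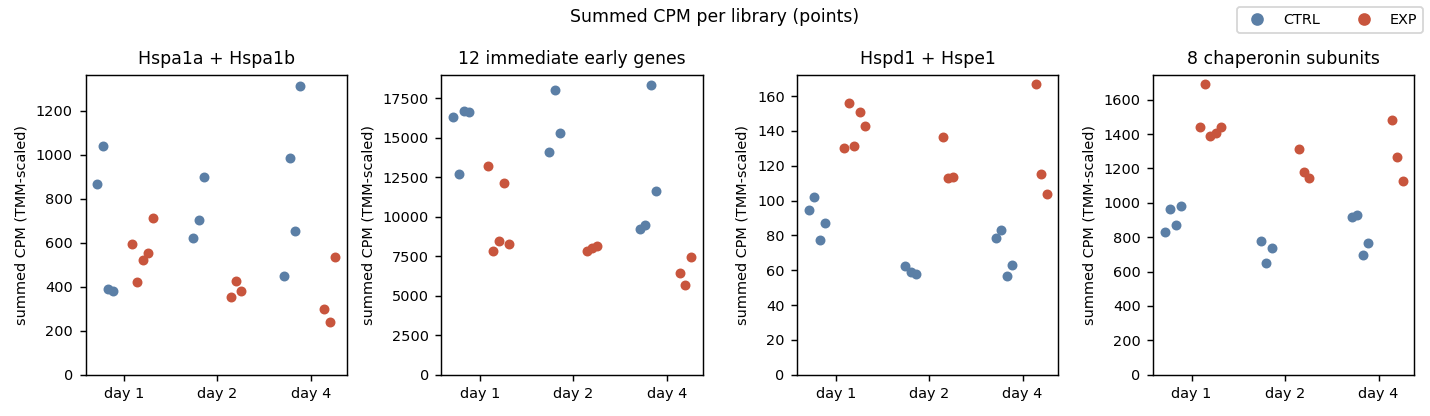
Summed CPM in each library (points; vertical axis in TMM-scaled CPM, starting at 0) by day and arm for Hspa1a with Hspa1b, the 12 immediate early genes, Hspd1 with Hspe1, and the 8 chaperonin subunits. EXP libraries lie above the CTRL libraries of their day for the chaperonin subunits (day 1: 1390 to 1694 against 828 to 981 CPM), and below them on days 2 and 4 for the immediate early genes (day 2: 7822 to 8144 against 14087 to 18018 CPM).

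Dnajb1 (ENSMUSG00000005483), the J-domain partner of inducible HSP70, was lower in EXP on each day. On day 1 CTRL libraries were at 225, 261, 281 and 223 CPM and EXP libraries at 165, 168, 161, 158 and 146 CPM. The log2 fold change was -0.63 (SE 0.12, adjusted p = 5.36e-04), and the highest EXP library lay below the lowest CTRL library. On day 2 CTRL libraries were at 223, 277 and 233 CPM and EXP libraries at 119, 115 and 124.5 CPM, a log2 difference of -1.03 (SE 0.15, adjusted p = 1.98e-04), or 2.04-fold lower. On day 4 CTRL libraries were at 222, 170.5, 238 and 213 CPM and EXP libraries at 159, 168 and 155 CPM. CTRL replicate 2 came close to the EXP libraries, and the log2 fold change was -0.39 (SE 0.14, adjusted p = 0.0434). The day 4 call was lost in 6 of 7 leave-one-out fits, all but the one without CTRL replicate 2 (adjusted p 0.0735 to 0.126), and on library totals the difference was -0.06 (adjusted p = 0.820). The day 1 difference was -0.65 (adjusted p = 0.0675) among the high-side libraries.

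Bag3 (ENSMUSG00000030847), a nucleotide exchange factor that links HSP70 and small heat shock proteins to autophagy, was also lower in EXP on each day. On day 1 CTRL libraries were at 242, 225, 207 and 202 CPM and EXP libraries at 175, 151, 155, 183 and 172 CPM. The groups did not overlap, and the log2 fold change of -0.39 (SE 0.14) passed narrowly (adjusted p = 0.0355). By day 2 CTRL libraries were at 246, 283 and 252 CPM and EXP libraries at 137, 173 and 134 CPM, a log2 difference of -0.81 (SE 0.17, adjusted p = 0.00350). On day 4 CTRL libraries were at 212, 229, 192 and 225 CPM and EXP libraries at 104, 94.2 and 149.7 CPM, a log2 difference of -0.89 (SE 0.16, adjusted p = 0.00111). CTRL and EXP libraries were apart on all 3 days. On library totals the Bag3 differences of days 1 and 2 were -0.19 (adjusted p = 0.328) and -0.36 (adjusted p = 0.138) and were not called. The day 1 call was lost without any of CTRL replicates 1, 2 and 3 or EXP replicates 1, 2, 3 and 5 (adjusted p 0.0510 to 0.102). Among the low-side libraries of day 4 the Bag3 difference was -0.93 (adjusted p = 0.183).

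Hspa1a and Hspa1b encode the stress-inducible HSP70 proteins, almost identical to each other, from neighbouring genes on chromosome 17. Their upstream bases are shown because they are nearly identical, and any part of these bases in the levels was not tested. The 160 bases before each start (RefSeq, GRCm38.p6, minus strand) are chr17:34972157-34972316 for Hspa1a and chr17:34959239-34959398 for Hspa1b, and neither stretch overlaps an annotated exon. Capitals mark the 2-unit heat shock element, which begins 104 bases before the start.
Hspa1a: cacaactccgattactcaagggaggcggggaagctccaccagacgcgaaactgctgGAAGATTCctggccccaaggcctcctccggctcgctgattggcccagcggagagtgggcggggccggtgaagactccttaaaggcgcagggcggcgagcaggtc
Hspa1b: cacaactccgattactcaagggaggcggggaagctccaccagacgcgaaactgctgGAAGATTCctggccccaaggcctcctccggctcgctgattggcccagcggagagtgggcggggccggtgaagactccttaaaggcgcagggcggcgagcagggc

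These stretches are identical at 159 of 160 bases, and 247 of the 250 bases before the starts are identical. The likeness extends into the transcripts: 38.1% of the 150-base stretches of Hspa1a occur in Hspa1b and 40.5% of those of Hspa1b in Hspa1a. Counting every other gene, 46% of the Hspa1a stretches occur elsewhere, and its exons overlap Gm20481 on the opposite strand. The authors' counting may therefore have divided or dropped reads of Hspa1a and Hspa1b, and their separate levels are uncertain. The ratio of Hspa1b to Hspa1a CPM stayed between 2.38 and 3.42 over the 22 libraries, with a median of 2.98.

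Hspa1a (ENSMUSG00000091971) was at 202, 236, 104 and 106 CPM in the CTRL libraries of day 1 and at 156, 105, 128, 129 and 179 CPM in EXP. The groups overlapped, with a log2 difference of -0.22 (SE 0.29, adjusted p = 0.609). On day 2 it was at 156, 197 and 235 CPM in CTRL and 86.0, 102 and 102 CPM in EXP. All EXP libraries were below all CTRL libraries, but the log2 fold change of -1.02 (SE 0.35, adjusted p = 0.0597) did not pass. On day 4 it was at 123, 232, 194 and 309 CPM in CTRL and 82.2, 54.2 and 139 CPM in EXP, a log2 difference of -1.23 (SE 0.34, adjusted p = 0.0147). EXP replicate 3 lay above CTRL replicate 1, so the groups overlapped although the gene was called.

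Hspa1b (ENSMUSG00000090877) repeated this order at a higher level. On day 1 CTRL libraries were at 667, 802, 288 and 277 CPM and EXP libraries at 437, 316, 392, 425 and 535 CPM, a log2 difference of -0.27 (SE 0.33, adjusted p = 0.572). By day 2 CTRL libraries were at 465, 508 and 666 CPM and EXP libraries at 269.9, 326 and 278 CPM (-0.91, SE 0.40, adjusted p = 0.145). On day 4 CTRL libraries were at 324, 753, 461 and 1003 CPM and EXP libraries at 218, 185 and 399 CPM, a log2 difference of -1.25 (SE 0.39, adjusted p = 0.0266).

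The counts of both genes were also summed, which does not depend on how reads were divided between them. Reads that were dropped, or that match another gene, can still affect the sum. The summed level on day 1 was 670 ± 334 CPM in the 4 CTRL libraries and 560.5 ± 107 CPM in the 5 EXP libraries (mean ± SD). It was 742 ± 144 and 388 ± 36.5 CPM (SD, n = 3 each) on day 2, and 850 ± 379 (SD, n = 4) and 359 ± 158 CPM (SD, n = 3) on day 4. The summed log2 fold changes were -0.26 (adjusted p = 0.576), -0.94 (adjusted p = 0.117) and -1.24 (SE 0.37, adjusted p = 0.0224), the last being 2.37-fold lower. On day 1 the sign rested on CTRL replicate 2, without which the differences were 0.023 for Hspa1a and 0.037 for Hspa1b. In a fit of the day 2 libraries alone, all on the low side of the split, Hspa1a (-1.02, adjusted p = 0.00423) and Hspa1b (-0.91, adjusted p = 0.00763) passed. In a fit of the day 4 libraries alone they did not (adjusted p = 0.0814 and 0.0994). On day 4 the call of Hspa1a was lost without EXP replicate 1 (adjusted p = 0.0724) or EXP replicate 2 (adjusted p = 0.0801). That of Hspa1b was lost without CTRL replicate 2 or 4 or EXP replicate 1 or 2 (adjusted p 0.0536 to 0.122). Among the low-side libraries of day 4 the differences were -0.96 and -1.01 (adjusted p = 0.308 and 0.305).

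The genes most like the Hspa1a and Hspa1b sum over the 22 libraries, by the same measure, were Aff1 (r = 0.826), Vps37b (r = 0.825), Osbpl11 (r = 0.817), Prr14 (r = 0.816) and Zkscan17 (r = 0.815). With group means removed r was 0.693 to 0.768. None of these encodes a heat shock protein.

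Immediate early genes, like those of HSP70, are known to increase during tissue dissociation. Of 12 such genes, 6 were called lower in EXP on day 1, 4 on day 2 and 4 on day 4, and none higher, where 14.7%, 5.71% and 9.66% of all tested genes were called lower. The other 6, 8 and 8 did not pass, and the median log2 difference of the 12 was -0.65, -0.97 and -0.59. Their summed level was 12721 to 16668 CPM in CTRL and 7862 to 13240 CPM in EXP on day 1, 14087 to 18018 and 7822 to 8144 CPM on day 2, and 9256 to 18369 and 5695 to 7484 CPM on day 4. Their part in the HSP70, Dnajb1 and Bag3 differences was not tested. On day 4 the 5 tested adipocyte markers of 6 were all called higher in EXP, with sums of 43.6 to 502 CPM against 0.545 to 2.23 CPM in CTRL, where 2 of the 6 were at 0 in every library. They reached at most 24.9 CPM on day 1, and 2 were called higher on day 2, with sums of 8.03 to 88.9 CPM in EXP against 0.249 to 3.13 CPM in CTRL. Their part in the day 2 and day 4 differences was not tested either. Immune markers, 5 of 8 of which could be tested, summed to 40.7 to 91.2 CPM in CTRL and 35.6 to 51.8 CPM in EXP on day 1. Their sums were 117 to 166 and 60.3 to 90.2 CPM on day 2, with no overlap, and 109 to 151 and 42.9 to 130.4 CPM on day 4. A single immune marker reached 158 CPM in a CTRL library of day 2 and 74.4 CPM in an EXP library. Such a sum can therefore rest largely on 1 gene. The monocyte and macrophage marker Cd68 was called higher on days 1 and 2 and the neutrophil gene S100a8 on all 3, while Csf1r was called lower on day 1 and Cd74 on days 2 and 4. Endothelial markers summed to at most 11.6 CPM, with Kdr called higher on days 2 and 4 and Emcn on day 4. The part of these cells in the differences was not tested. These marker genes were named after their values were seen.

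Hsph1 (ENSMUSG00000029657), the HSP110 exchange factor of HSP70, was called on no day. On day 1 CTRL libraries were at 116, 154, 51.8 and 50.1 CPM and EXP libraries at 58.7, 47.2, 45.2, 77.5 and 60.8 CPM. CTRL replicates 1 and 2, which also had the highest Hspa1a and Hspa1b of their group, stood above all EXP libraries, while the other 2 fell among them. The log2 fold change was -0.68 (SE 0.27, adjusted p = 0.0660), and it passed without CTRL replicate 3 (adjusted p = 0.0222), without CTRL replicate 4 (adjusted p = 0.0181) or without EXP replicate 4 (adjusted p = 0.0409). The day 2 CTRL libraries were at 45.8, 26.8 and 30.6 CPM and EXP libraries at 50.6, 41.6 and 48.4 CPM (0.45, SE 0.34, adjusted p = 0.411). On day 4 they were at 39.2, 52.9, 39.0 and 55.02 CPM in CTRL and 36.0, 29.3 and 45.0 CPM in EXP (-0.34, SE 0.31, adjusted p = 0.462).

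Hspa8 (ENSMUSG00000015656), the constitutive HSC70 of every cell, was likewise called on no day. On day 1 CTRL libraries were at 555, 729, 479 and 607 CPM and EXP libraries at 763, 633, 862, 679 and 848 CPM, with overlapping groups and a log2 difference of 0.35 (SE 0.16, adjusted p = 0.111). On library totals that difference was 0.56 and passed (adjusted p = 0.0119). The day 2 CTRL libraries were at 631, 618 and 719 CPM and EXP libraries at 562, 587 and 559 CPM, apart but with a log2 difference of only -0.20 (adjusted p = 0.541), which on library totals was 0.27. On day 4 CTRL libraries were at 559, 803, 527 and 555 CPM and EXP libraries at 412, 485 and 625 CPM (-0.27, adjusted p = 0.312, and 0.020 on library totals).

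Hsp90aa1 (ENSMUSG00000021270), the inducible cytosolic HSP90, was higher in EXP on day 1. CTRL libraries were at 126, 131, 119 and 123 CPM and EXP libraries at 159, 137, 226, 180.2 and 184 CPM, with no overlap and a log2 difference of 0.51 (SE 0.16, adjusted p = 0.0241). The call was lost without CTRL replicate 3 (adjusted p = 0.0636) or EXP replicate 3 (adjusted p = 0.0673), with the library split as a covariate (0.36, adjusted p = 0.0762) and among the high-side libraries (0.21, adjusted p = 0.504). The day 2 CTRL libraries were at 122, 168 and 142 CPM and EXP libraries at 134, 137 and 116 CPM. On day 4 they were at 148, 178, 97.8 and 117 CPM in CTRL and 139.6, 124.4 and 122 CPM in EXP. The groups overlapped on both days, with log2 fold changes of -0.16 (adjusted p = 0.657) and -0.07 (adjusted p = 0.812) that became 0.30 and 0.27 on library totals. Of the 150-base stretches of Hsp90aa1, 36.2% occur in another gene, as do 22.4% of those of Hspa8.

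Hspb1 (ENSMUSG00000004951), the small heat shock protein HSP25 that binds unfolding proteins and actin, was called on no day. It was at 34.3, 28.1, 23.1 and 17.5 CPM in CTRL and 11.5, 25.3, 29.7, 15.2 and 19.8 CPM in EXP on day 1 (-0.34, SE 0.38, adjusted p = 0.538). On day 2 it was at 3.88, 7.47 and 7.82 CPM in CTRL and 9.31, 8.54 and 17.4 CPM in EXP. The groups were apart by less than 1 CPM, and the log2 fold change of 0.88 (SE 0.48, adjusted p = 0.241) did not pass. On day 4 it was at 4.11, 5.19, 9.47 and 18.1 CPM in CTRL and 18.1, 21.3 and 10.04 CPM in EXP (0.84, SE 0.44, adjusted p = 0.172). Without CTRL replicate 4 this difference was 1.39 (adjusted p = 0.0269). Hspb1 is also abundant in keratinocytes, and the markers of these cells summed to 7.80 to 50.01 CPM in CTRL and 2.52 to 18.0 CPM in EXP on day 1, to 5.23 to 37.98 and 4.84 to 6.44 CPM on day 2, and to 6.80 to 27.6 and 3.81 to 21.9 CPM on day 4. Of the 8 markers, 1 was called, lower in EXP on day 1. Of the 150-base stretches of Hspb1, 36.6% occur in the pseudogene Hsp25-ps1.

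**Figure D4:**
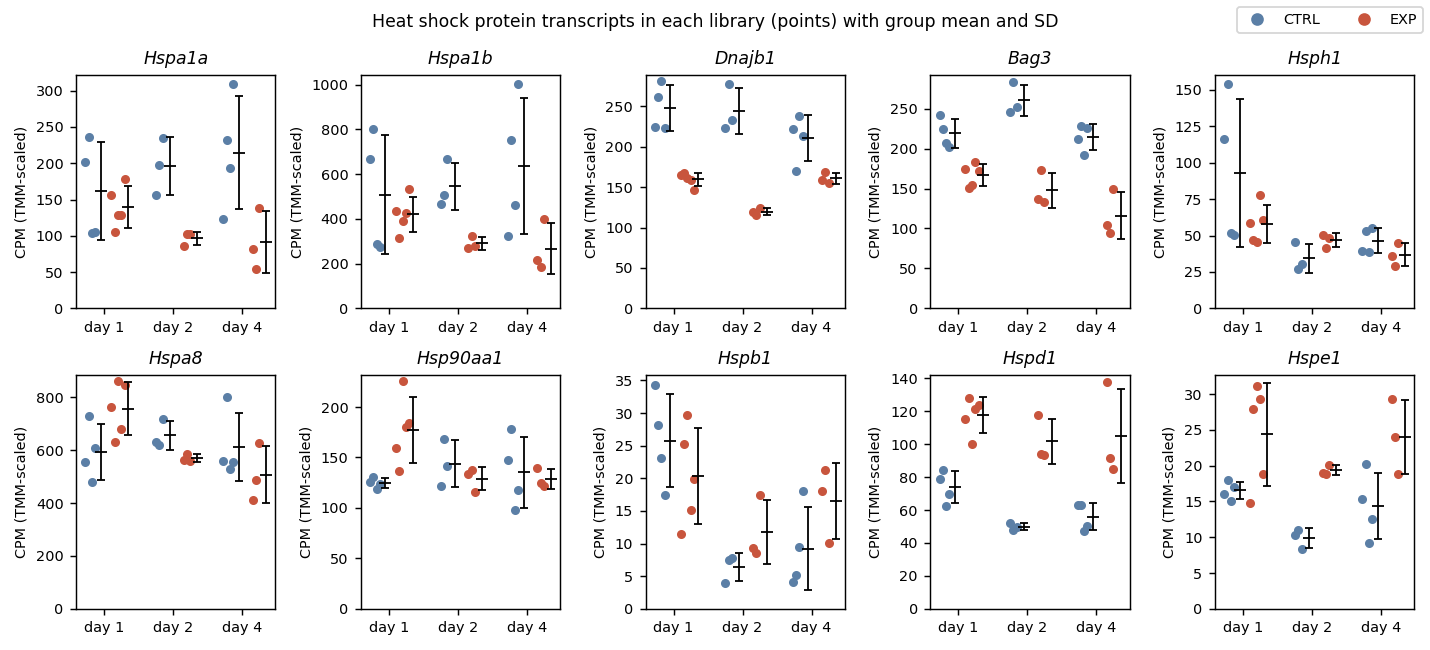
CPM of each of the 10 genes (panels; vertical axes start at 0 and differ between panels) in each library (points), by day and arm, with group mean and SD beside the points. Hspd1 separates EXP from CTRL on all 3 days (day 2: 93.3 to 118 against 48.0 to 52.1 CPM), as do Dnajb1 (day 2: 115 to 124.5 against 223 to 277 CPM) and Bag3 (day 2: 134 to 173 against 246 to 283 CPM), and Hspa1b in day 4 CTRL spans 324 to 1003 CPM.

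Levels of different genes can be set against each other only per length of transcript. In CPM per kb of exon, group means ran from 118 to 176 for Hspa8. It was followed by Bag3 (45.3 to 101.5), Dnajb1 (37.3 to 77.2), Hsp90aa1 (31.7 to 45.1) and Hspd1 (18.9 to 44.6). Hspb1 (6.20 to 25.0), Hspe1 (6.69 to 16.5) and Hsph1 (4.74 to 12.8) were lowest. Hspa1b was at 95.3 to 227 and Hspa1a at 30.9 to 72.3 CPM per kb, but since their reads may have been divided or dropped, the pair was given no place in this order. Of the 150-base stretches, 36.6% of Hspb1, 36.2% of Hsp90aa1, 22.4% of Hspa8 and 18.6% of Hspd1 also occur in another gene. Exon length joins all annotated exons, 7266 bases for Hsph1 where its longest transcript has 4764. The order is therefore uncertain as well. In CTRL of day 4 Hspa1b was at 227 ± 108 CPM per kb and Hspa8 at 142 ± 29.9 (SD, n = 4 each). In EXP of day 4 Hspa1b was at 95.3 ± 41.0 and Hspa8 at 118 ± 25.2 (SD, n = 3 each). Both genes were measured in the same libraries, and the difference between them was not tested.

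Whether the effect of the expander depended on the day was tested jointly over the 3 days. None of the 10 genes passed this edgeR test, where 8.82% of all tested genes did. The lowest adjusted p was 0.0965, for Dnajb1, and Dnajb1, Hsp90aa1 and Hspa8 had an unadjusted p under 0.05. A call on 1 day and not on another, as for Hspa1a, Hspa1b and Hsp90aa1, is therefore not shown to differ between days. DESeq2 called 1 of the 10, Dnajb1 (adjusted p = 0.0313), and limma voom another, Hspb1 (adjusted p = 0.0425).

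Within EXP, none of the 10 changed over the days in the edgeR test, against 14.3% of all genes. Bag3 (adjusted p = 0.0547), Hspa8 (0.0567), Dnajb1 (0.0609) and Hsp90aa1 (0.0876) had an unadjusted p under 0.05. DESeq2 called 3 of the 10 and limma voom 2. Bag3 means in EXP were 167 ± 13.8 (SD, n = 5), 148 ± 21.99 (SD, n = 3) and 116 ± 29.7 CPM (SD, n = 3) on days 1, 2 and 4. Within CTRL none of the 10 passed, against 0.291% of all genes, with Hspb1 (adjusted p = 0.0617) and Hsph1 (0.0643) lowest, and with Hspd1 and Hspe1 also at an unadjusted p under 0.05. DESeq2 and limma voom each called 2. Hspb1 means in CTRL were 25.7 ± 7.15 (SD, n = 4), 6.39 ± 2.18 (SD, n = 3) and 9.22 ± 6.35 CPM (SD, n = 4), and those of Hsph1 were 92.9 ± 50.9, 34.4 ± 10.1 and 46.5 ± 8.60 CPM on the same days.

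The rest of the chaperone network was read from lists that hold 74 further genes in all. Of these, 17, 18 and 18 were called higher in EXP on days 1, 2 and 4, and 8, 5 and 6 lower. Of all tested genes 13.9%, 7.72% and 12.8% were called higher and 14.7%, 5.71% and 9.66% lower, so the counts of lower genes lay near those shares. The list counts below are to be read against the same shares. The 74 genes had median log2 fold changes of 0.15, 0.10 and 0.07. On each day 8 of the genes called higher were the chaperonin subunits above.

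Among 19 other HSP70 relatives and their co-factors, 4, 3 and 3 were called higher and 1, 2 and 3 lower. Stip1, the adaptor that passes clients from HSP70 to HSP90, was the most significant of the network on day 2. It was at 51.6, 31.2 and 45.2 CPM in CTRL and 145, 109 and 122 CPM in EXP, a log2 difference of 1.55 (SE 0.21, adjusted p = 1.66e-04). Among 12 HSP90 relatives and co-chaperones, 1, 1 and 1 were called higher and 2, 0 and 0 lower. Among 5 other small heat shock proteins, 0, 1 and 1 were called higher and 2, 1 and 1 lower.

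The most significant chaperonin subunits were Cct5 and Tcp1 on day 1, Tcp1 and Cct7 on day 2 and Cct5 on day 4. Cct5 was at 126 CPM in CTRL and 228 CPM in EXP on day 1 (0.86, SE 0.14, adjusted p = 1.80e-04), and at 116 and 211 CPM on day 4 (0.86, SE 0.16, adjusted p = 0.00129). Tcp1 was at 85.3 and 139.6 CPM on day 1 (0.71, SE 0.12, adjusted p = 1.82e-04) and at 65.3 and 113 CPM on day 2 (0.80, SE 0.14, adjusted p = 0.00116). Cct7 was at 94.8 and 185 CPM on day 2 (0.96, SE 0.18, adjusted p = 0.00176).

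Among 14 other mitochondrial chaperones and proteases, 2, 4 and 3 were called higher and 2, 0 and 1 lower. Grpel1, the exchange factor of mitochondrial HSP70, was at 27.8 to 36.3 CPM in the CTRL libraries of day 1 and 48.2 to 71.7 CPM in EXP (0.82, SE 0.14, adjusted p = 2.55e-04). Htra2, a protease of the space between the mitochondrial membranes, was at 10.3, 14.8, 14.5 and 16.7 CPM in CTRL and 34.2, 31.3 and 22.4 CPM in EXP on day 4 (1.06, SE 0.17, adjusted p = 4.76e-04). Clpp, the proteolytic subunit of the matrix ClpXP protease, was at 21.1, 18.0, 14.9 and 13.2 CPM in CTRL and 32.8, 35.2 and 28.8 CPM in EXP on day 4 (0.94, SE 0.17, adjusted p = 0.00123).

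**Figure D5:**
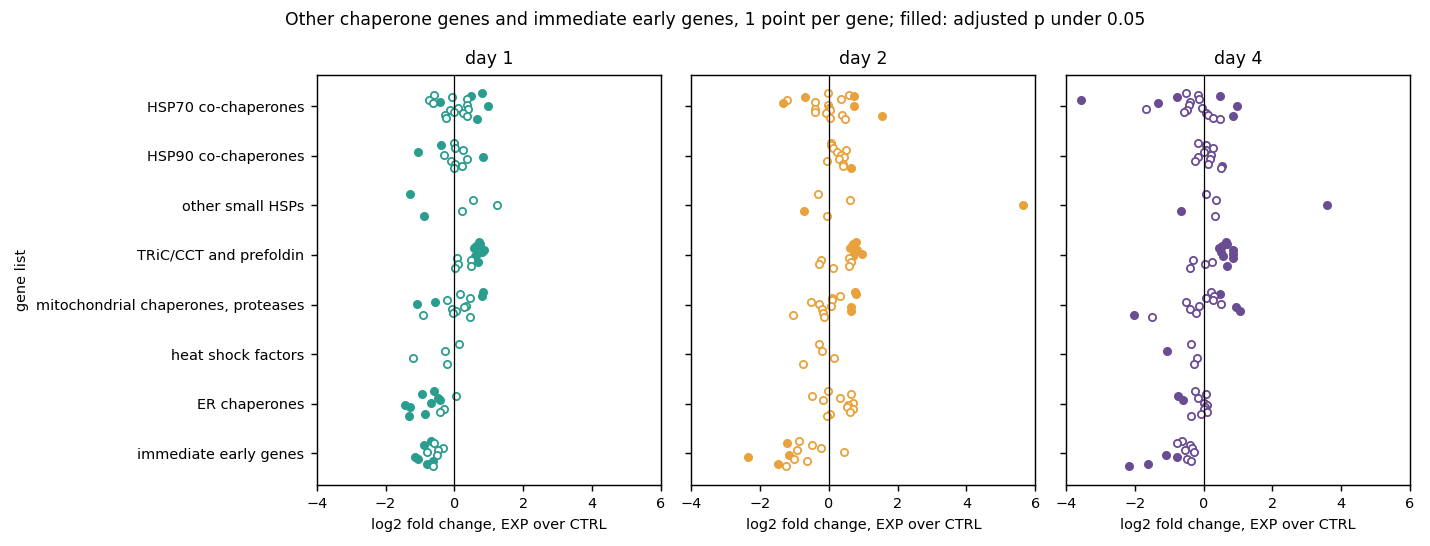
Log2 fold change of EXP over CTRL (horizontal axis) for each gene (points) of 8 lists (vertical axis) on day 1, 2 and 4 (panels), filled where the adjusted p was under 0.05. In the row of TRiC/CCT and prefoldin genes 9, 8 and 10 of 14 points are filled and all filled points lie to the right of 0, while filled immediate early genes lie to the left.

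Hsf1 itself was not called on any day. It was at 33.6 to 50.1 CPM in CTRL and 28.6 to 53.3 CPM in EXP on day 1 (0.12, adjusted p = 0.639), at 39.3 to 43.7 and 28.9 to 41.6 CPM on day 2 (-0.30, adjusted p = 0.372), and at 35.4 to 44.5 and 26.0 to 37.6 CPM on day 4 (-0.36, adjusted p = 0.199). Of 4 heat shock factors and their binding protein, 1 was called, Hsf2, lower on day 4 (-1.06, SE 0.29, adjusted p = 0.0139; named after its value was seen). Among 17 other genes known to be induced by heat, of which 11 are also in the lists above, 1, 3 and 1 were called higher and 4, 5 and 3 lower. The chaperones of the endoplasmic reticulum gave 9 of 12 called lower on day 1, 0 on day 2 and 2 on day 4, where 14.7%, 5.71% and 9.66% of all tested genes were called lower. Their HSP70, Hspa5, was at 3357 to 4025 CPM in CTRL and 1924 to 3107 CPM in EXP on day 1 (-0.58, SE 0.18, adjusted p = 0.0182), and was not called on day 2 (-0.04, adjusted p = 0.931) or day 4 (-0.24, adjusted p = 0.410).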

How the data were processed

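The authors deposited raw counts per gene for 22 libraries. Per the submitters' processing notes, Trimmomatic and build mm39 were used. The aligner, the counting tool, its annotation and its use of strand are not given in the sources used here. Per the labels' protocols, libraries were ultra-low-input and read as pairs of 150 bases.

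Symbols came from GENCODE M21 (52081 of 55414 IDs matched). Genes were filtered with filterByExpr (minimum count 10), scaled by TMM and tested with edgeR 4.0.16 (robust quasi-likelihood, R 4.3.3) with a mean for each of the 6 groups, 16 residual degrees of freedom and Benjamini-Hochberg adjustment. DESeq2 1.42.0, limma 3.58.1 and other filters, scalings and fits were alternatives. The procedure was tested on simulated data. Log2 CPM used a prior count of 2.

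The members and lists were chosen with earlier results of these data known. Named were all 10 genes, up to 3 list genes a day with the smallest p that were called and averaged 5 CPM or more (immediate early and endoplasmic reticulum lists left out), Hsf1, Hspa5, and the 5 genes most like each of 2 patterns. Marker lists for melanocytes (at most 37.0 CPM summed in a library), Schwann cells (15.6), skeletal muscle (4.48) and pericytes (30.2) were also read. Melanocyte markers gave 1 of 3 tested called lower in EXP on days 2 and 4, Schwann markers 1 of 4 lower on day 1, pericyte markers 1 of 6 lower on days 1 and 2, and skeletal muscle markers 1 of 3 lower on day 2 and 1 higher on day 4.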

Additional observations from a re-analysis of the deposited data

Results flagged for a closer look

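Hspa8 in day 4 CTRL replicate 2 was at 803 CPM (802.85), while the other 3 libraries of the group lay between 527 and 559 CPM. Its distance to the nearest of them was large for the range of the group by Dixon's criterion. Of 30 sets of values examined, 1 stood out in this way, and chance would give 1.5.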

How the results depend on the processing

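Leaving aside fits that omit a library, 547 of 630 alternative values kept direction and side of the threshold, 45 lost a call, 34 gained one and 4 changed sign. Fits that omit a library gave 608, 30, 19 and 3 of 660. Except where values are given here, the cause of a change was not tested. With an absolute log2 fold change of at least 1 required as well, 2504, 1568 and 2405 genes and 0, 2 and 2 of the 10 were called on days 1, 2 and 4. On library totals without TMM, 4631 genes were called on day 2, 66.2%, 90.5% and 80.7% of called genes were higher (48.7%, 57.5% and 57.0% with TMM), 4, 4 and 3 of the 10 were higher and 1, 1 and 2 lower, and Hspa8 was at 0.27 (day 2) and 0.020 (day 4) and Hsp90aa1 at 0.30 and 0.27. Over days, that scaling called 2 of the 10 within EXP, and 163 genes and 2 of the 10 within CTRL. DESeq2 called 2609 genes and 1 of the 10 for the difference between days, 3 of the 10 within EXP, and 525 genes and 2 of the 10 within CTRL. Limma voom called 4620 genes and 7 of the 10 on day 2, 3 of the 10 on day 4, 2352 genes and 1 of the 10 between days, 2 of the 10 within EXP, and 631 genes and 2 of the 10 within CTRL. With every counted gene 2 of the 10 were called on day 1. With a mean CPM of at least 1, 2 of the 10 were called within EXP and 83 genes within CTRL. Day 4 libraries alone gave 1128 genes and 2 of the 10. With a covariate for the side of the library split, 3 of the 10 were called on day 4, 2 within EXP, and 29 genes within CTRL. The high side alone gave 2210 genes and 0 of the 10 on day 1, and the low side 1 gene and 0 of the 10 on day 4, with fewer libraries.

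Same-numbered libraries of both arms deviated together weakly or not at all (correlations -0.0664 to 0.164, 3 of 10 above 0.1), so the numbers were not taken to pair them. As a hint from the data, 3 of 8, 0 of 6 and 6 of 6 libraries correlated best with their own number on days 1, 2 and 4, and all 3 correlations of day 4 were above 0 (0.0795, 0.146 and 0.109). With a replicate block, 4337, 2210 and 2702 genes were called on the 3 days, 2 of the 10 on day 1 and 2 on day 4, 401 genes between days and 11 within CTRL. The block left Hsp90aa1 (adjusted p = 0.0738) and Bag3 (0.0908) uncalled on day 1, and Hspa1a (0.0551), Hspa1b (0.142), Dnajb1 (0.161) and Hspe1 (0.0560) on day 4.

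Omitting 1 library gave 4024 to 4830 genes and 2 to 5 of the 10 on day 1, 891 to 2177 and 3 to 4 on day 2, and 1633 to 5011 and 2 to 5 on day 4. It gave 898 to 2572 genes and 0 to 1 between days, 1367 to 3415 and 0 to 3 within EXP, and 5 to 92 and 0 to 1 within CTRL. The log2 difference ran from -0.38 to 0.023 for Hspa1a and from -0.48 to 0.037 for Hspa1b on day 1, above 0 without CTRL replicate 2 only, and from -0.20 to 0.088 for Hsp90aa1 on day 4, above 0 without CTRL replicate 2 only. The chaperonin count of 8, an alternative chosen after seeing the data, was 0 with the fold requirement, and on day 4 was 5 with limma voom, the block or the covariate, 6 with every counted gene, 1 for the day alone and 0 on the low side. It was 6 on the high side of day 1 and 7 on day 2 with every counted gene. Exact permutation over 3 against 3 libraries on day 2 cannot go below 0.1.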
